A study of Mus musculus with 60 samples.

Results

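Libraries of the populations labelled 23-CATA and 23-NC were compared at day 6 of adipocyte differentiation, 3 of each. These 6 libraries were taken by their sample titles from 60 in the series, of which 36 share a table of FPKM values (fragments per kilobase of transcript, scaled to mapped depth). The 3 libraries of 23-NC at day 4 were set beside them, because adipocyte transcripts of 23-NC are lower at day 6 than at day 4. All are polyadenylated RNA of C3H10T1/2 cells, an established mouse embryo line that behaves like mesenchymal stem cells. Per the labels' protocols, the induction of every group lasted 48 h. The medium held 10% FBS, 10 µg/ml insulin, dexamethasone (1 µM), rosiglitazone (1 µM), T3 (1 nM) and IBMX (0.5 mM), and after it, from day 2, the cells were fed 10% FBS with insulin at 5 µg/ml. The series title names the TET1 dioxygenase and adipogenesis. What the names 23-CATA and 23-NC stand for is not given in the labels, so they are used here as names only.

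Adipocytes arise from mesenchymal cells through a cascade of transcription factors. C/EBPβ and C/EBPδ come early, and then PPARγ, which binds DNA with RXRα, and C/EBPα maintain each other and switch on the genes of lipid uptake, triglyceride storage, lipolysis and insulin response. Rosiglitazone is a ligand of PPARγ, dexamethasone activates the glucocorticoid receptor, and IBMX raises cyclic AMP. TET enzymes oxidise 5-methylcytosine, a step towards removal of DNA methylation, and DNA methylation at promoters and enhancers is one of the layers that hold cell-type genes off.

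In the 9 libraries of 23-CATA day 6, 23-NC day 6 and 23-NC day 4, 14187 to 14616 genes were above 0. About 12.4 to 16.2 M fragments lay behind their FPKM values, read from the spacing of the lowest values. Libraries within each of these groups correlated with Pearson's r of 0.9913 to 0.9967 across genes on the log2(FPKM + 1) scale. The lowest of these values were those of 23-NC day 4 replicate 3, whose summed FPKM of 15 adipocyte markers was 28483 against 21212 and 21716 in the other libraries of its group. The labels do not say whether replicates were separate cultures, so the p-values below measure the spread among libraries of a group. That spread was estimated over all 36 libraries that share the table, other days and 23-Tet1 included. All adipocyte markers were at 1 FPKM or more in 23-CATA day 6. Their summed level was 57527 to 59031 FPKM there, 11313 to 12761 in 23-NC day 6 and 21212 to 28483 in 23-NC day 4. Fabp4, given below, makes up most of each of these sums and most of the excess in 23-NC day 4 replicate 3. The sums are thus mainly the level of that gene. Markers of other mature lineages were low: leukocyte markers summed to 76.6 to 86.3, 125 to 132 and 15.6 to 16.8 FPKM in the same order, with Cd68, a lysosomal protein gene, the one at or above 1 FPKM, and Ptprc and Tyrobp at 0 throughout. Endothelial markers summed to at most 5.35 FPKM, with Cdh5 and Tie1 at 0, and epithelial markers to at most 1.36, with Epcam at 0. Skeletal muscle markers reached at most 1.56 FPKM. Smooth muscle markers summed to 26.2 to 28.9 FPKM in 23-CATA day 6 and 17.2 to 19.2 in 23-NC day 6, chondrocyte markers to 16.3 to 18.6 and 23.9 to 25.1, and osteoblast markers to 7.10 to 8.31 and 9.63 to 11.0. Fibroblast markers summed to 1402 to 1614 FPKM in 23-CATA day 6, 2184 to 2278 in 23-NC day 6 and 1289 to 1413 in 23-NC day 4. In bulk RNA, fewer cells of a type and less RNA per cell cannot be told apart, and the part of cell composition in the results below was not tested.

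Tet1 itself (chr10:62804570-62908996 in mm10, minus strand) was present in 23-CATA and all but absent in 23-NC. It read 5.96, 5.75 and 6.24 FPKM in the 23-CATA day 6 libraries, was listed at 0 in all 3 of 23-NC day 6 and stood at 0.03, 0.02 and 0.02 in 23-NC day 4. The groups did not overlap. On the log2(FPKM + 1) scale used for every difference below, 23-CATA was higher than 23-NC by 2.80 ± 0.11 (SE, adjusted p = 2.5e-19) in limma with Benjamini-Hochberg adjustment over all genes. In 23-CATA at day 4 it was 9.73, 10.97 and 6.8 FPKM, and in 23-Tet1 at day 6, from the same table, 4.48, 4.04 and 4.05. Kif20a, a mitotic kinesin gene, is listed at exactly the same values as Tet1 in these 3 23-CATA day 6 libraries and at others elsewhere, and 3 such pairs occur among the 935 genes with a mean of 5 to 7 FPKM there. A gene total does not tell which part of the transcript the fragments came from.

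Across the transcriptome, 9096 of 12229 genes tested were called between 23-CATA and 23-NC at day 6 (74.4%). Of these 4642 were higher in 23-CATA (38% of genes tested) and 4454 lower (36.4%), and the median difference was 0.016. The counts for any list below are to be read against these shares. At 1 log2 unit or more, 2390 genes were called (19.5%), 1395 of them rises (11.4%) and 995 falls (8.14%). At 3 log2 units or more there were 99 rises and 21 falls. The balance depended on scaling: 51% of calls were higher as fitted, 46.5% after quantile normalization, 52.6% with median-ratio scaling and 36.9% when libraries were brought to equal FPKM sums, which moved the median difference of all genes to −0.21. Every value of one group lay above every value of the other in 9458 genes (77.3%).

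The other TET genes did not follow. Tet2 read 2.85, 2.42 and 3.13 FPKM in 23-CATA day 6 against 10.3, 7.46 and 9.56 in 23-NC day 6 and 5.45, 4.74 and 4.07 in 23-NC day 4. It was thus lowest in 23-CATA, with no overlap, and the day 6 difference was −1.40 ± 0.16 (SE, adjusted p = 8.6e-09). Tet3 was not called (5.29 against 5.73 FPKM, difference −0.09 ± 0.15 SE, adjusted p = 0.59). Of 19 tested genes of the TET enzymes and DNA methylation machinery, 3 rose, 11 fell and 5 were not called, with a median difference of −0.28 (−0.53 with equal FPKM sums). Besides Tet1, the rises were Idh1 (157 against 67.4 FPKM), which makes the α-ketoglutarate that TET enzymes use, and Mbd3 (42.4 against 19.2), a subunit of the NuRD repressor complex. The falls by at least 1 log2 unit were Tet2 and Gadd45b (12 against 90.6 FPKM), a stress-induced gene. Mbd4, a DNA glycosylase, fell from 1.56 to 0.62 FPKM.

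The 10 largest rises among genes at 5 FPKM or more in the higher group were Cfd, Trf, Sncg, G0s2, Chchd10, Gpd1, Acaa1b, Apoc1, Aqp7 and Cox8b, at fitted differences of 5.24 to 7.68. Cfd encodes adipsin, a serine protease of the complement pathway secreted by fat cells. It read 466, 501 and 469.7 FPKM in 23-CATA day 6, 1.04, 1.34 and 1.68 in 23-NC day 6 and 0.23, 0.55 and 0.8 in 23-NC day 4. Of these libraries those of 23-CATA alone held more than 2 FPKM, and the difference was 7.68 ± 0.13 (SE, adjusted p = 4e-28). Trf, the iron carrier transferrin, was at 116 ± 5.51 FPKM (SD, n = 3) in 23-CATA and 0.0367 ± 0.0635 in 23-NC, and Sncg, γ-synuclein, at 203 ± 9 and 1.05 ± 0.551. Chchd10, a mitochondrial intermembrane-space protein, was at 120.3 ± 10.5 against 1.22 ± 0.291 FPKM. Apoc1, an apolipoprotein, was at 138 ± 14.3 against 2.34 ± 0.67. These genes were chosen among those whose day 6 groups did not overlap.

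The 10 largest falls were Serpina3m, Ctla2a, Arl4d, Fkbp5, Errfi1, Ctla2b, Serpina3k, Orm3, Lama5 and Tsc22d3, at −5.09 to −3.60. Serpina3m, a serine protease inhibitor gene, read 1.46, 1.91 and 1.06 FPKM in 23-CATA day 6 and 79.5, 83.6 and 84.7 in 23-NC day 6. Serpina3k, of the same family, was listed at 0 in all 3 23-CATA libraries and at 15.6, 14.7 and 15.3 in 23-NC. Ctla2a, a cysteine protease inhibitor gene, went from 673 ± 56.1 FPKM (SD, n = 3) in 23-NC to 20.4 ± 0.771 in 23-CATA, and Lama5, a laminin chain, from 84.6 ± 9.43 to 6.04 ± 0.806. Arl4d, a small GTPase of the ARF family, went from 91.9 ± 8.65 to 2.13 ± 0.386, and Orm3, an acute-phase orosomucoid, from 72.2 ± 6.4 to 4.06 ± 0.682. Serpina3 genes, the Ctla2a and Ctla2b pair and the orosomucoids are near copies, and how fragments were shared among such copies makes the single values uncertain.

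The regulators of adipogenesis were split. Pparg (chr6:115360951-115490399) read 149, 159.8 and 149 FPKM in 23-CATA day 6, 50.9, 49.8 and 51.4 in 23-NC day 6 and 81.1, 84.4 and 97.9 in 23-NC day 4. All 23-CATA day 6 libraries lay above those of both 23-NC days. The day 6 difference was 1.57 ± 0.08 (SE, adjusted p = 3.1e-17), or 3.01-fold in mean FPKM. Cebpa, its partner, read 307, 308 and 295 FPKM in 23-CATA day 6, 38.5, 45.2 and 38.1 in 23-NC day 6 and 173, 169 and 177 in 23-NC day 4. The order was the same, with 23-NC day 6 lowest, and the difference was 2.88 ± 0.08 (SE, adjusted p = 1.2e-22). Rxra went the other way, at 36.5, 34.5 and 32.5 FPKM in 23-CATA day 6, 66.2, 65.8 and 62.9 in 23-NC day 6 and 102, 101 and 90.1 in 23-NC day 4, so that 23-CATA was lowest and the difference was −0.89 ± 0.06 (SE, adjusted p = 4.4e-14). Cebpd, an early factor, fell from 86.1 to 31.6 FPKM (−1.41 ± 0.12 SE, adjusted p = 1.2e-11). Cebpb read 87.7, 85.6 and 85.5 FPKM in 23-CATA day 6 and 123, 157 and 203 in 23-NC day 6. The groups did not overlap, yet the gene was not called (−0.86 ± 0.42 SE, adjusted p = 0.066), and it was called with the 6 libraries fitted alone (adjusted p = 0.0011).

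Of 21 adipogenic transcription factors tested, 8 rose, 9 fell and 4 were not called, with a median of −0.21 (−0.47 with equal FPKM sums). The largest rises after Cebpa were Nr1h3, the oxysterol receptor LXRα (34.7 against 3.91 FPKM), and Pparg. Srebf1, the regulator of fatty acid synthesis genes (58.6 against 20.2), and Ebf1 (26.1 against 9.41) were chosen after their values were seen and also rose. Klf9 fell from 28.3 to 8.7 FPKM. Of 17 genes known to restrain adipogenesis, 2 rose, 12 fell and 3 were not called (median −0.57). The largest falls were in Klf2 (16.5 to 3.34 FPKM), Klf7 (6.61 to 1.06) and the Notch target Hes1 (27.7 to 12.2). Id3, an inhibitor of helix-loop-helix factors, rose from 109 to 170.1, and Nr2f2, an orphan nuclear receptor, from 2.77 to 3.59. The rise of Nr2f2 was not called with equal FPKM sums (adjusted p = 0.395).

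All 15 adipocyte markers rose at day 6 (median 2.88), and most genes of fatty acid handling were higher in 23-CATA. Fabp4, the cytosolic fatty acid binding protein, read 48029.7, 49273 and 48385 FPKM in 23-CATA day 6, 9717, 11069 and 9767 in 23-NC day 6 and 18183, 18668 and 25315 in 23-NC day 4. It stood above both 23-NC days in every 23-CATA library, at a day 6 difference of 2.26 ± 0.26 (SE, adjusted p = 7.3e-09). Lpl, the lipase that frees fatty acids from lipoproteins, read 1277, 1259 and 1319 FPKM in 23-CATA and 141, 136 and 149.8 in 23-NC at day 6 (3.17 ± 0.07 SE, adjusted p = 5.4e-25). Cd36, a fatty acid transporter, read 178, 179.7 and 180.0 against 27.1, 28.1 and 27.6 (2.66 ± 0.09 SE, adjusted p = 4.3e-21). Neither gene's groups overlapped. Of 15 genes of fatty acid uptake and binding, 11 rose, 2 fell and 2 were not called (median 1.95, or 1.22 after quantile normalization). Aqp7, the glycerol channel (67.4 against 0.677 FPKM), Acsl1, which activates fatty acids (1719.9 against 149.8), and Fabp5 (3475 against 329.6) rose most. Slc27a3, of the fatty acid transport protein family, fell from 7.25 to 1.05 FPKM and Vldlr, a lipoprotein receptor, from 29.1 to 14.7.

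**Figure D1:**
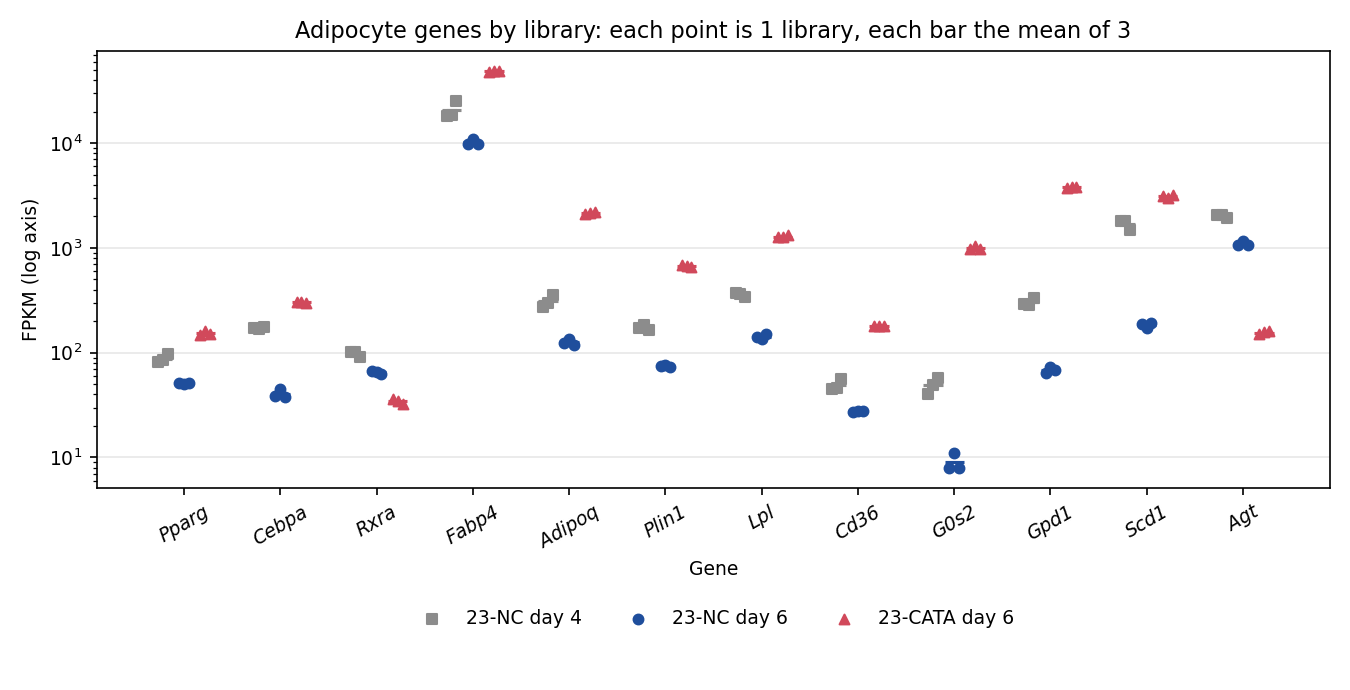
FPKM on a log axis of 12 genes in the 3 libraries of 23-NC day 4 (grey squares), 23-NC day 6 (blue circles) and 23-CATA day 6 (red triangles), with a bar at each group's mean of 3. Fabp4, Adipoq, Plin1, Lpl, Cd36, G0s2, Gpd1, Scd1, Pparg and Cebpa are highest in 23-CATA day 6 and lowest in 23-NC day 6, while Rxra and Agt are lowest in 23-CATA day 6.

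Most lipid droplet genes were higher in 23-CATA. Plin1, the coat protein that guards the droplet from lipases, read 681, 668 and 665 FPKM in 23-CATA day 6, 74.8, 75.95 and 73.9 in 23-NC day 6 and 172, 183 and 166 in 23-NC day 4. The groups stood in the order 23-CATA day 6, 23-NC day 4, 23-NC day 6 without overlap, and the day 6 difference was 3.15 ± 0.06 (SE, adjusted p = 6.7e-27). Of 15 lipid droplet genes tested of 17 listed, 13 rose and 2 fell, all 13 by at least 1 log2 unit (median 1.73). Cidea, a droplet fusion protein, was at 136 ± 5.65 FPKM (SD, n = 3) against 3.69 ± 0.849, and Mrap, an accessory protein of the corticotropin receptor, at 206 ± 4.2 against 18 ± 2.07. Plin3 and Hilpda were the falls, from 107 to 79.9 and from 26.5 to 18 FPKM.

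In triglyceride assembly 11 of 15 genes rose, 3 fell and 1 was not called (median 1.41). Gpd1, which makes glycerol 3-phosphate, read 3766, 3835 and 3852 FPKM in 23-CATA day 6, 64.7, 73.4 and 68.5 in 23-NC day 6 and 294, 286 and 335 in 23-NC day 4. That is 55.4-fold in mean FPKM at day 6, with no overlap. Pck1, the entry enzyme of glyceroneogenesis, was at 23.9 ± 1.71 FPKM (SD, n = 3) against 0.123 ± 0.0862, and the acyltransferase gene Gpat3 at 98.4 ± 4.26 against 9.23 ± 0.874. The 3 falls were the whole lipin family of phosphatidate phosphatases: Lpin1 (89.4 to 50.6 FPKM), Lpin2 (9.32 to 6.42) and Lpin3 (7.99 to 3.56).

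Fatty acid synthesis genes rose in 15 of 18 cases, with 3 not called and no falls (median 1.04). Scd1, the stearoyl-CoA desaturase, read 3154, 2994 and 3236 FPKM in 23-CATA day 6, 188, 172 and 192 in 23-NC day 6 and 1813, 1803 and 1488 in 23-NC day 4. In 23-NC it dropped steeply between the days while 23-CATA stood high, and the day 6 difference was 4.08 ± 0.09 (SE, adjusted p = 1.7e-25). Thrsp, a lipogenic nuclear protein, was at 52.8 ± 1.49 FPKM (SD, n = 3) against 0.743 ± 0.516, and Fads2, a desaturase of polyunsaturated fatty acids, at 64.7 ± 1.33 against 16 ± 1.27. With equal FPKM sums 12 of the 18 rose.

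Lipolysis genes and their brakes were higher together. Of 14 tested, 11 rose, 1 fell and 2 were not called (median 1.43). G0s2, the inhibitor of the triglyceride lipase ATGL, read 975, 1039 and 968 FPKM in 23-CATA day 6, 7.94, 11.2 and 8.02 in 23-NC day 6 and 40.01, 48.95 and 57.95 in 23-NC day 4. Each 23-CATA library held over 900 FPKM, and the difference was 6.65 ± 0.18 (SE, adjusted p = 4.2e-23). Hcar1, the lactate receptor that restrains lipolysis, was at 16.6 ± 0.583 FPKM (SD, n = 3) against 0.297 ± 0.132, and Mgll, which cleaves monoglyceride, at 64.3 ± 2.32 against 5.38 ± 0.542.

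Among secreted products of fat cells, 11 of 15 tested rose and 4 fell (median 1.89). Adipoq, adiponectin, read 2102, 2165 and 2192 FPKM in 23-CATA day 6, 123, 136 and 118 in 23-NC day 6 and 274, 298 and 359 in 23-NC day 4. Its day 6 difference was 4.09 ± 0.09 (SE, adjusted p = 1e-25), or 17.1-fold in mean FPKM. Retn, resistin, was at 287 ± 16.8 FPKM (SD, n = 3) against 11.3 ± 2.3. Agt, angiotensinogen, was lowest in 23-CATA day 6, at 149, 156 and 159 FPKM in 23-CATA day 6, 1065, 1156 and 1068 in 23-NC day 6 and 2061, 2075 and 1926 in 23-NC day 4 (−2.81 ± 0.14 SE, adjusted p = 2.4e-17). Adamts1, a secreted protease, fell from 136 to 31.9 FPKM, and Nampt, an enzyme of NAD synthesis, from 309.6 to 115. Leptin (Lep) was near 0 in every library, at a mean of 0.00667 FPKM in 23-CATA and 0.0167 in 23-NC, and was not tested.

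Insulin signalling genes showed no single direction, with 8 of 18 higher, 9 lower and 1 not called (median −0.26, or −0.52 with equal FPKM sums). Pik3r3, a regulatory subunit of PI 3-kinase (11.2 against 2.26 FPKM), Slc2a4, the insulin-responsive glucose transporter GLUT4 (59.7 against 16), and Irs3, an insulin receptor substrate (1.95 against 0.0267) rose most. Akt1 fell from 109 to 72.5 FPKM, Hk1 from 66.7 to 44.4, and Cbl, an adaptor of the insulin receptor, from 10.7 to 4.93. The call of Cbl was lost without 23-CATA replicate 2, 23-NC replicate 1 or 23-NC replicate 3 (adjusted p = 0.0792, 0.107 and 0.109).

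Mitochondrial genes rose as a block. All 38 genes of the citrate cycle and respiratory chain were higher in 23-CATA than in 23-NC at day 6, 30 of them by at least 1 log2 unit (median 1.29). Cycs, cytochrome c, read 383, 402 and 401 FPKM in 23-CATA day 6, 39.9, 44.6 and 38.9 in 23-NC day 6 and 152, 160.0 and 218 in 23-NC day 4. The 23-CATA libraries stood above both 23-NC days, and the difference was 3.24 ± 0.11 (SE, adjusted p = 5.8e-21). Ndufa4, another respiratory chain gene, was at 1519 ± 71.5 FPKM (SD, n = 3) against 316 ± 18.1, and the complex I subunit Ndufa9 at 193 ± 9.34 against 49.2 ± 4.84. In fatty acid oxidation 25 of 26 genes rose and 1, Cpt1a, was not called (14 against 13.5 FPKM), at a median of 1.60. Cpt1b, the muscle form of the same carnitine transferase, read 54.7, 53.2 and 49.3 FPKM in 23-CATA and 1.73, 1.4 and 1.83 in 23-NC at day 6, and so did not overlap. Acaa1b, a peroxisomal thiolase, was at 134 ± 18.2 against 1.84 ± 0.398 FPKM, a value that near-identical Acaa1a makes uncertain. Ehhadh, another peroxisomal enzyme, was at 10.8 ± 0.684 against 0.12 ± 0.0624.

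Genes linked to brown and beige fat rose in part, without Ucp1. Of 23 listed, 14 were tested, 9 rose, 3 fell and 2 were not called (median 1.99). Cox8b, a cytochrome oxidase subunit of brown fat and muscle, read 293, 261 and 256 FPKM in 23-CATA day 6, 7.24, 4.78 and 6.67 in 23-NC day 6 and 2.87, 3.5 and 5.49 in 23-NC day 4. It was over 200 FPKM in 23-CATA day 6 and under 10 on both 23-NC days (5.24 ± 0.22 SE, adjusted p = 1.1e-18). Elovl3, a fatty acid elongase, was at 37.8 ± 3.02 FPKM (SD, n = 3) against 0.133 ± 0.0351. Ucp1, the uncoupling protein that defines heat-producing fat, did not pass the filter, at a mean of 0.0167 FPKM in 23-CATA and 0 in 23-NC. Prdm16 averaged 0.01 FPKM and Dio2 was listed at 0 in 23-CATA. Tbx1, a T-box factor, fell from 37.8 to 13.7 FPKM, Pdk4, a kinase that shuts pyruvate dehydrogenase, from 240.1 to 111, and Ebf2, a factor of brown preadipocytes, from 1.71 to 0.94.

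**Figure D2:**
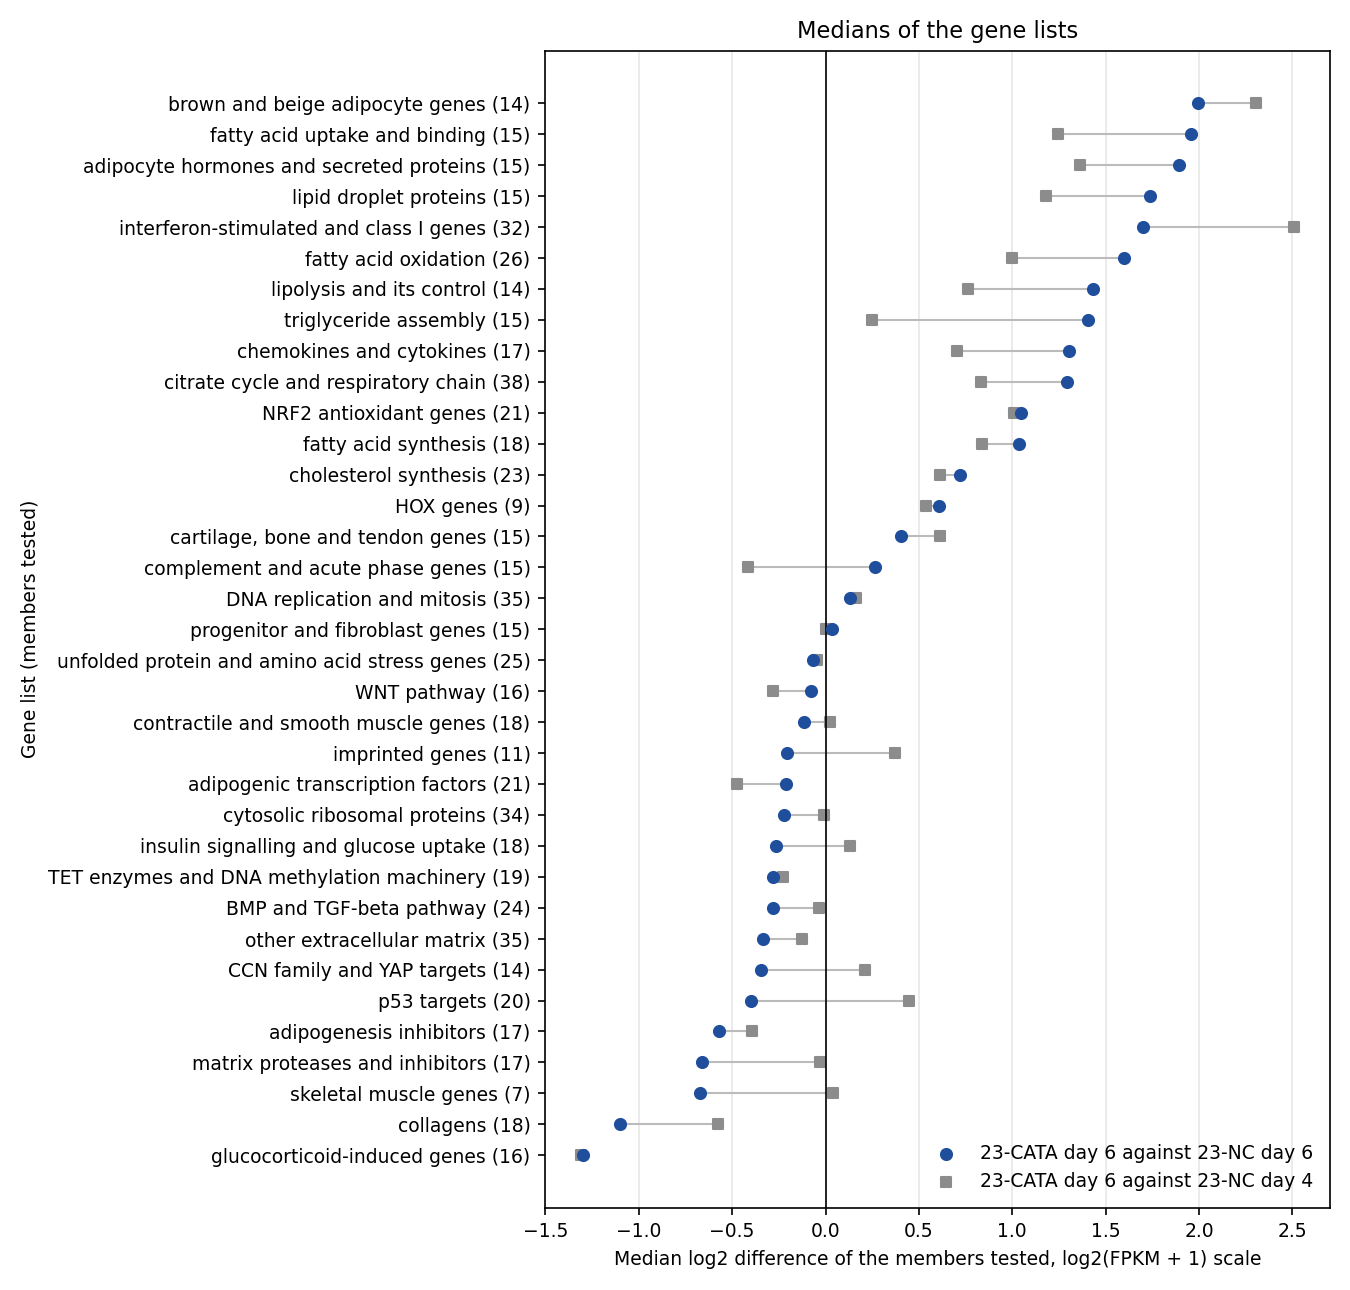
Median log2(FPKM + 1) difference of the members tested in each gene list with at least 5 tested, for 23-CATA day 6 against 23-NC day 6 (blue circles) and against 23-NC day 4 (grey squares). Lipid and mitochondrial lists lie to the right in both comparisons. The interferon list lies further right against day 4 (2.51) than against day 6 (1.70). The p53 list is among several that lie on opposite sides (−0.40 and 0.45).

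Interferon-stimulated genes formed the other block of rises. These genes answer interferon or viral nucleic acid through factors that include STAT2 and IRF9 and bind a repeated TTTC element in their promoters. Promoters of 4 list members that hold the element are shown here, and that of Mt1 further on, because the data bear on these genes. Each is given as the bases from 160 to 21 before the RefSeq start on GRCm38.p6 in the gene's direction, 5′ to 3′. Capitals mark exact matches of the interferon element, the letters TTTC repeated after any 2 bases, on either strand, and overlapping matches run together.

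Isg15, chr4:156200839-156200978, minus strand: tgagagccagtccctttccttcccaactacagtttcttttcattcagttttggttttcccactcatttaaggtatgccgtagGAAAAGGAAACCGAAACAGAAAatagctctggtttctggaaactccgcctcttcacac
Ifit1, chr19:34640729-34640868, plus strand: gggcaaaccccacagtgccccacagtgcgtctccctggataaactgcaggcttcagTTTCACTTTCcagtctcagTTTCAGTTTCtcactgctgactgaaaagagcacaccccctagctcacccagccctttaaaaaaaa
Ifit3, chr19:34583369-34583508, plus strand: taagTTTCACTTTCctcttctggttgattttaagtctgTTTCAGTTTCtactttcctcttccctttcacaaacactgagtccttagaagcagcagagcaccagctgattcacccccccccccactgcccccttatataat
Bst2, chr8:71537493-71537632, minus strand: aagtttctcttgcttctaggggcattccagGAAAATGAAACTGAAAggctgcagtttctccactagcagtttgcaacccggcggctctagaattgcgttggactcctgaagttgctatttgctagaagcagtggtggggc

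Isg15 holds 3 overlapping matches, beginning 78, 72 and 66 bases before the start, Ifit1 has matches at 104 and 85, Ifit3 at 156 and 122, and Bst2 at 130 and 124. Of 32 listed genes tested, 23 matched a RefSeq promoter, and 10 of their 27 promoters (37.0%) held the element, against 3.44% of all 32851 promoters in the table. The 10 genes were B2m, Bst2, Ddx58, Ifih1, Ifit1, Ifit3, Ifit3b, Isg15, Oas1a and Stat2. This motif was chosen after the data were seen, the list was assembled for its known response to interferon, and a match is a description of letters only.

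Of those 32 genes 31 rose in 23-CATA at day 6 and none fell, with 1 not called, at a median of 1.70. Isg15, a ubiquitin-like modifier, read 259, 274 and 252 FPKM in 23-CATA day 6, 9.23, 6.77 and 7.38 in 23-NC day 6 and 3.25, 2.6 and 4.12 in 23-NC day 4. It was above 250 FPKM in each 23-CATA day 6 library and under 10 in those of both 23-NC days, and the difference was 4.91 ± 0.15 (SE, adjusted p = 3.9e-22). Ifit1, which binds viral RNA, read 91.3, 92.4 and 93.9 FPKM against 7.28, 6.47 and 7.2 in 23-NC day 6 and 1.49, 1.3 and 1.81 in 23-NC day 4 (3.55 ± 0.08 SE, adjusted p = 5.5e-25). The groups stood in that order without overlap. Ifit3 was at 183 ± 5.43 FPKM (SD, n = 3) against 15.8 ± 1.44, and Bst2, tetherin, at 513 ± 25.3 against 162 ± 21. Ifi27l2a was second to B2m in mean FPKM within the list in 23-CATA, at 3134, 2760.4 and 2935 FPKM in 23-CATA against 110.1, 144 and 119.5 in 23-NC at day 6. Ifit3b, a close copy of Ifit3, was at 62.7 against 3.09 FPKM, and the split of fragments between them is uncertain.

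Genes of factors in this response rose too. Irf7 was at 37.6 ± 1.27 FPKM (SD, n = 3) against 9.88 ± 0.946 and Irf9 at 28 ± 1.48 against 15 ± 0.235, both chosen after their values were seen. Rsad2, or viperin, did not pass the filter, at 0.187 FPKM in 23-CATA and 0 in 23-NC. In antigen presentation, B2m, the class I light chain, was at 3451 ± 299 against 1957 ± 37 FPKM, whereas the peptide transporter gene Tap1 was not called (16.3 against 14.7). The count of rises stayed between 29 and 31 across scalings. Of the leukocyte markers given above, Cd68 alone reached a mean of 1 FPKM in 23-CATA day 6 or either 23-NC day. The part of cell composition in these rises was not tested.

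**Figure D3:**
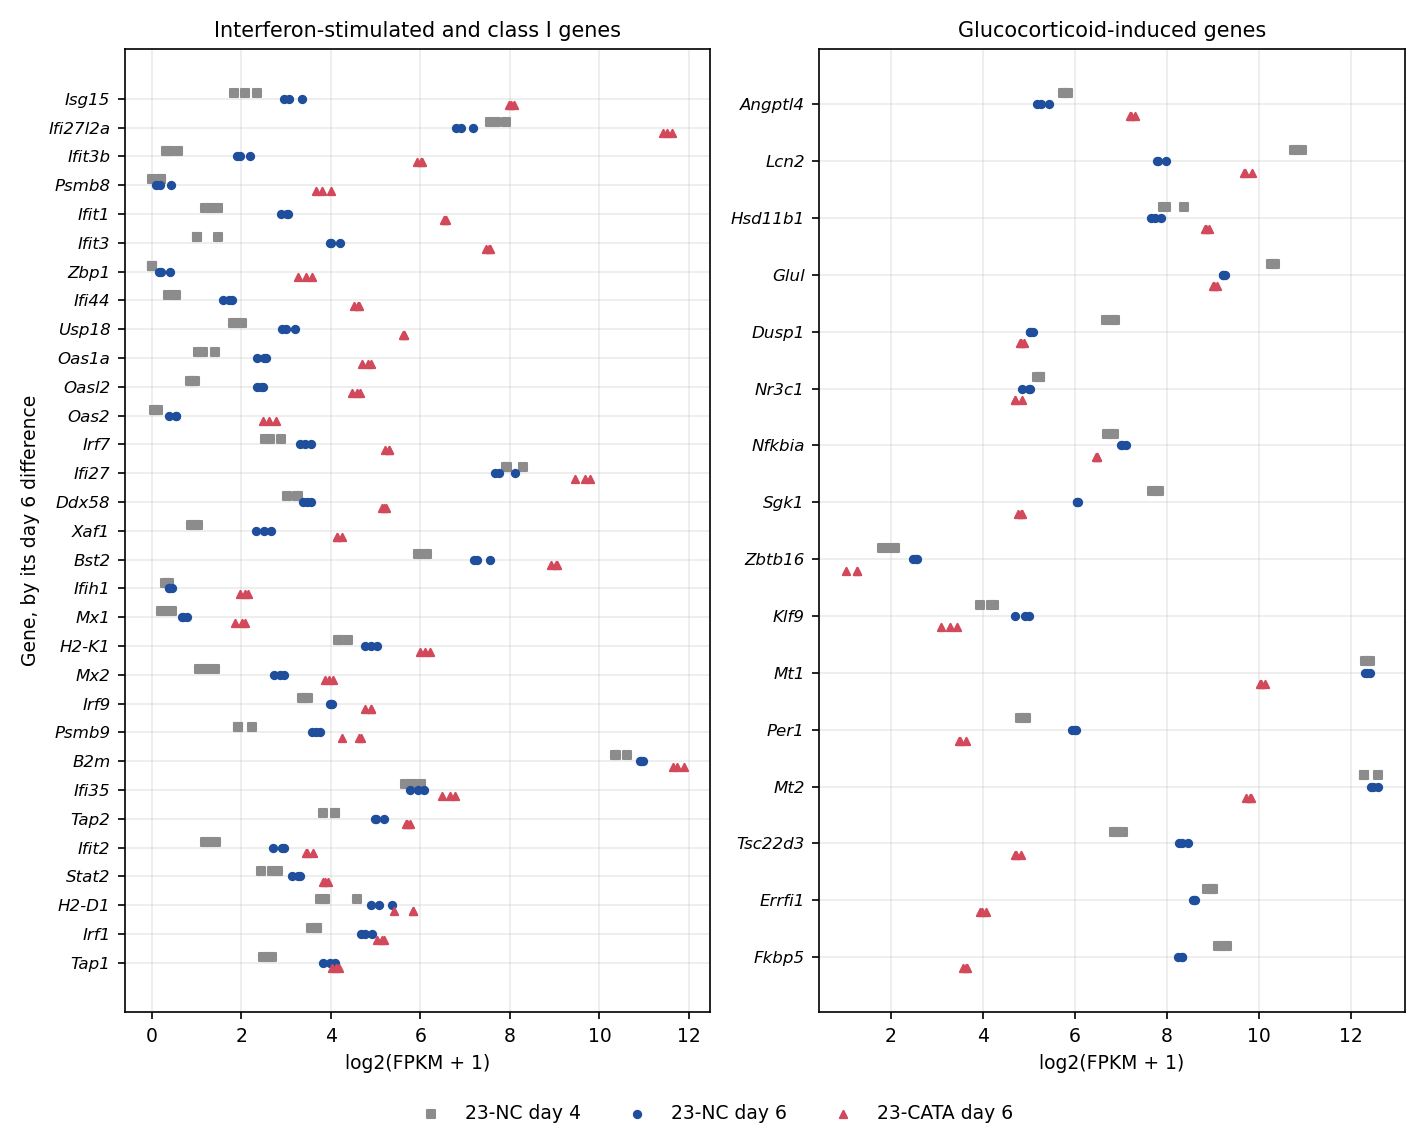
log2(FPKM + 1) in each library of 23-NC day 4, 23-NC day 6 and 23-CATA day 6 for 31 of the 32 interferon-stimulated and class I genes and the 16 glucocorticoid-induced genes tested. Isg15 and Ifit1 are highest in 23-CATA day 6, and Fkbp5, Errfi1 and Tsc22d3 are lowest there.

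Chemokine genes showed the same direction more often than not. Of 17 tested of 28 listed, 10 rose, 4 fell and 3 were not called (median 1.31). Cxcl1, a neutrophil attractant, read 185, 188 and 188 FPKM in 23-CATA and 12.4, 12.4 and 12.8 in 23-NC at day 6 (3.80 ± 0.10 SE, adjusted p = 6.2e-24), with no overlap. The monocyte attractant gene Ccl2 was at 41.7 ± 4.76 FPKM (SD, n = 3) in 23-CATA against 4.14 ± 1.3 in 23-NC. Another chemokine gene, Ccl5, stood at 18.4 ± 3.68 FPKM in 23-CATA and 0.657 ± 0.487 in 23-NC. Ptgs2, the inducible cyclooxygenase, fell from 6.63 to 3.3 FPKM and Nfkbia, the inhibitor of NF-κB, from 132 to 87.7. Complement and acute phase genes were divided, with 7 of 15 higher, 5 lower and 3 not called (median 0.27, or 0.16 after quantile normalization). Cfb, complement factor B, was at 37.3 ± 2.16 FPKM against 0.3 ± 0.128, while Lbp, the lipopolysaccharide binding protein, fell from 266 ± 8.1 to 39.1 ± 0.909.

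Most of the genes that glucocorticoids induce fell. All groups had received dexamethasone during induction. Of 16 tested, 12 fell, 3 rose and 1 was not called, at a median of −1.30. Fkbp5 (chr17:28399094-28517527), a cochaperone of the glucocorticoid receptor and one of its targets, read 10.9, 11.3 and 11.6 FPKM in 23-CATA day 6, 304, 318 and 323 in 23-NC day 6 and 628, 609 and 556 in 23-NC day 4. The 23-CATA day 6 libraries were all under 12 FPKM and those of both 23-NC days above 300. The day 6 difference was −4.69 ± 0.06 (SE, adjusted p = 1.1e-30), or 28-fold lower in mean FPKM. Tsc22d3, the leucine zipper protein GILZ, read 24.8, 27.5 and 25.3 FPKM in 23-CATA day 6, 307, 349 and 318 in 23-NC day 6 and 115, 119 and 131 in 23-NC day 4. It was likewise lowest in 23-CATA (−3.60 ± 0.12 SE, adjusted p = 2.6e-21). Errfi1, an inhibitor of the EGF receptor, was at 15 ± 0.75 FPKM (SD, n = 3) against 385 ± 5.74. Nr3c1, the receptor's own gene, was not called, at 25.03, 24.8 and 27.9 FPKM against 31.1, 27.8 and 31.7.

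The rises of the glucocorticoid list were Angptl4 (151 against 38.3 FPKM), an inhibitor of lipoprotein lipase that is also a PPAR target, Lcn2 (858 against 231) and Hsd11b1 (466 against 215), which regenerates active glucocorticoid. The metallothioneins, which bind zinc, fell: Mt1 read 1033, 1121 and 1054 FPKM in 23-CATA against 5087, 5508 and 5250.2 in 23-NC day 6 and 5263, 5083 and 5483 in 23-NC day 4 (−2.30 ± 0.12 SE, adjusted p = 1.5e-16), and Mt2 differed by −2.72 ± 0.12 (SE, adjusted p = 6.5e-18). For neither did the groups overlap. The same window of the Mt1 promoter follows, with capitals on its exact match of the palindrome bound by the glucocorticoid receptor, GNACA and its reverse complement with any 3 bases between, 94 bases before the start.

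Mt1, chr8:94178929-94179068, plus strand: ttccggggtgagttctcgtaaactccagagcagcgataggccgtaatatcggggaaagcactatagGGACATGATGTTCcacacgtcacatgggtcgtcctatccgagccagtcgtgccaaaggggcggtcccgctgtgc

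Of 22 promoters of 13 matched genes of the list, 2 (9.09%) held this motif, those of Mt1 and Sgk1, against 0.475% of all promoters. It too was chosen after the data were seen.

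Matrix genes were mostly lower in 23-CATA than in 23-NC at day 6. Of 18 collagen genes tested, 13 fell, 3 rose and 2 were not called (median −1.10). Col1a1, the main fibrillar collagen chain, read 197, 177 and 158 FPKM in 23-CATA day 6, 793, 841 and 802 in 23-NC day 6 and 288, 294 and 225 in 23-NC day 4. Thus 23-CATA day 6 lay below 23-NC day 6 without overlap, at a difference of −2.19 ± 0.10 (SE, adjusted p = 1.1e-17). Col4a5, of basement membrane, fell from 27.4 ± 0.656 FPKM (SD, n = 3) to 7.01 ± 0.647 and Col4a1 from 803 ± 33.1 to 229.8 ± 10.5. Col15a1 rose from 15.6 ± 0.48 to 34.9 ± 1.26. Of 35 other matrix genes, 19 fell, 9 rose and 7 were not called (median −0.34, or −0.66 after quantile normalization and −0.59 with equal FPKM sums), with Lox, the collagen crosslinking oxidase (238 to 48.1 FPKM), Fbln2 (358 to 77) and Hspg2, perlecan (77.9 to 17.8), the largest falls. Fmod (12.9 to 37.3 FPKM), Sparcl1 (0.577 to 3.27) and Aspn (9.02 to 19.1) were the largest rises. Among 17 matrix proteases and inhibitors 9 fell, 4 rose and 4 were not called (median −0.66), led by Mmp2 (676 to 159 FPKM). The sum of fibroblast markers, given above, was also lower in 23-CATA day 6 than in 23-NC day 6. It is no separate measure, since Col1a1, Col1a2, Col3a1, Postn, Dcn and Lum are in both sets. Of the 11 fibroblast markers tested 4 rose and 6 fell (median −0.25), and the part of cell composition was not tested.

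Antioxidant genes under NRF2 rose in 15 of 21 cases, with 3 falls and 3 not called (median 1.05). Srxn1, sulfiredoxin, was at 216 ± 2.76 FPKM (SD, n = 3) against 38.8 ± 1.08. Gsta1 and Gsta2, a near-identical pair, were at 8.62 against 0.57 and 5.7 against 0.13 FPKM. Hmox1, heme oxygenase, fell from 1622 ± 35.5 to 609 ± 45, and Gclc, of glutathione synthesis, from 87.5 ± 4.95 to 21 ± 0.596. Targets of p53 fell in 14 of 20 cases, with 2 rises and 4 not called (median −0.40, or −0.61 after quantile normalization and −0.66 with equal FPKM sums), the largest falls being Sesn1 (80.8 to 12.7 FPKM) and Trp53inp1 (251 to 42.4). Cdkn1a, the cell cycle inhibitor p21, was chosen after its values were seen and fell from 225 to 186. Gdf15 and Phlda3 were the rises, the second of which turned to a fall of 0.20 under quantile normalization.

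Day 4 of 23-NC gives the second vantage. Between day 4 and day 6 of 23-NC 7414 genes were called (60.6%), 3865 higher at day 6 (31.6%) and 3549 lower (29%), and 905 by at least 1 log2 unit (7.4%), of which 523 rose (4.28%) and 382 fell (3.12%). Between 23-CATA day 6 and 23-NC day 4 there were 8234 calls (67.3%), 4489 higher (36.7%) and 3745 lower (30.6%), and 1623 by at least 1 log2 unit (13.3%), with 1000 higher (8.18%) and 623 lower (5.09%). These comparisons share libraries with the day 6 comparison, so each set of values is given for itself. As fitted 54.5% of the calls against day 4 were higher, against 34% with equal FPKM sums. Without 23-NC day 4 replicate 3 the calls by at least 1 log2 unit were 883 within 23-NC and 1805 for 23-CATA day 6 against 23-NC day 4.

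Of the 1395 rises at day 6, 1277 were also called above 23-NC day 4, 725 of them by at least 1 log2 unit, 98 were not called and 20 were below it. Of the 995 falls, 817 were also called below 23-NC day 4, 355 by at least 1 log2 unit, 127 were not called and 51 were above it. Over all genes tested 36.7% were above 23-NC day 4 and 30.6% below. Both sets were chosen by the same 23-CATA day 6 libraries that were then compared with 23-NC day 4. That choice alone tilts the counts towards the same direction, so no conclusion is drawn from them. All 15 adipocyte markers were above 23-NC day 4 in 23-CATA day 6 (median 1.83), while within 23-NC 13 of them fell between the days. Pparg exceeded the 23-NC day 4 level by 0.80 ± 0.08 (SE, adjusted p = 2.5e-10), Cebpa by 0.81 ± 0.08 (SE, adjusted p = 1.1e-09) and Adipoq by 2.80 ± 0.09 (SE, adjusted p = 1e-21). For Pparg the difference from day 4 was thus smaller than that from day 6, and 23-NC itself fell by 0.78 between the days.

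Lists differed in how far the choice of day mattered. In the mitochondrial list 37 of 38 genes were above 23-NC day 4 (median 0.83, or 0.50 after quantile normalization), and 33 had fallen within 23-NC. In fatty acid oxidation 25 of 26 were above (median 1.00). Triglyceride assembly was nearer to day 4, with 7 of 15 above, 4 below and 4 not called (median 0.25, or 0.13 after quantile normalization). Agpat2, an acyltransferase, was at 649 FPKM in 23-CATA day 6, 128 in 23-NC day 6 and 776 in 23-NC day 4, and Dgat2, which makes triglyceride, at 336, 169 and 551, both chosen after their values were seen. Lcn2, lipocalin 2, was at 834, 927 and 815 FPKM in 23-CATA day 6, 223, 252 and 218 in 23-NC day 6 and 1729, 1821 and 1969 in 23-NC day 4, and so lay between the 23-NC days.

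Interferon-stimulated genes were above 23-NC day 4 in 32 of 32 cases (median 2.51), and 25 of them had risen within 23-NC between the days. Glucocorticoid-induced genes were below it in 14 of 16 and above in 2 (median −1.31). Collagens were below in 12 of 18 (median −0.58, or −0.93 after quantile normalization). Other matrix genes were below in 17 of 35 and above in 10 (median −0.13, or −0.40 with equal FPKM sums). Matrix proteases and inhibitors were below in 7 of 17 and above in 6 (median −0.029, or −0.30 with equal FPKM sums), and 12 had risen within 23-NC. The p53 targets turned: 15 of 20 were above 23-NC day 4 and 3 below (median 0.45). Within 23-NC 17 had risen, though with equal FPKM sums 9 were above (median 0.24). Other medians also changed sign from day 6 to day 4: complement and acute phase (0.27 to −0.41), imprinted (−0.21 to 0.37), CCN and YAP (−0.35 to 0.21), insulin signalling (−0.26 to 0.13), contractile (−0.12 to 0.024) and skeletal muscle genes (−0.67 to 0.041). For the last lists, from CCN and YAP on, the day 4 medians with equal FPKM sums were −0.025, −0.14, −0.19 and −0.14. Cdkn1a averaged 186 FPKM in 23-CATA day 6, 225 in 23-NC day 6 and 142 in 23-NC day 4.

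Genes that moved within 23-NC were placed in the same way. Of the 382 that fell by at least 1 log2 unit from day 4 to day 6 of 23-NC, 23-CATA day 6 was called below 23-NC day 4 in 202 (52.9%), above it in 113 (29.6%), and not apart from it in 67. Of the 523 that rose, 23-CATA day 6 was above 23-NC day 4 in 297 (56.8%), below it in 100 and not apart in 126. Across all genes tested these shares were 36.7% above and 30.6% below. Both sets were chosen by the same 23-NC day 4 libraries that 23-CATA day 6 was then compared with. That choice alone tilts the first set towards below and the second towards above, so no conclusion is drawn from these shares.

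Whether the difference between populations changed from day 4 to day 6 was tested by the interaction of population and day. It was called in 5632 genes (46.1%), with the 23-CATA minus 23-NC difference greater at day 6 in 3513 (28.7%) and smaller in 2119 (17.3%). By at least 1 log2 unit there were 863 (7.06%), 533 positive (4.36%) and 330 negative (2.7%). The positive share of calls was 62.4% as fitted, 49.8% after quantile normalization, 49.4% with median-ratio scaling and 64.5% with equal FPKM sums. Adipocyte markers had a greater difference at day 6 in 11 of 15 cases and a smaller one in none (median 0.91), the interferon list in 27 of 32 with 1 smaller (median 1.21), and glucocorticoid-induced genes were more negative at day 6 in 9 of 16 with 4 more positive (median −0.85), against a median of 0.099 over all genes. Respiratory chain genes had 10 positive, 2 negative and 26 not called of 38, a balance that turned with median-ratio scaling (5 positive and 7 negative).

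Single genes took several courses. Scd1 in 23-CATA was 2882, 2928 and 2162 FPKM at day 4 and 3154, 2994 and 3236 at day 6, ranges that lie close without overlap, while in 23-NC it went from 1813, 1803 and 1488 to 188, 172 and 192. The change in its difference was 3.44 ± 0.13 (SE, adjusted p = 1.6e-18). Cfd in 23-CATA was 14.1, 13.6 and 15.9 at day 4 and 466, 501 and 469.7 at day 6, with 23-NC below 2 FPKM at both. Rbp7, an intracellular retinol binding protein, ran against the fat genes: 23-CATA held 381, 348 and 389.7 FPKM at day 4 and 13.2, 15.5 and 14.8 at day 6, while 23-NC held 3.11, 3.52 and 5.27 at day 4 and 6.73, 9.92 and 9.41 at day 6. Hspb7, a small heat shock protein, rose in 23-NC from 3.11, 2.94 and 3.7 to 26.9, 27.7 and 28.4 FPKM. The 23-CATA libraries went the other way, from 24.7, 25.3 and 27.6 to 3.76, 3.86 and 3.58. The day 6 difference of Rbp7 alone (0.69 ± 0.27 SE, adjusted p = 0.021) was not called with equal FPKM sums, a pseudocount of 0.1, or without 23-CATA replicate 2 or 23-NC replicate 1 (adjusted p = 0.191, 0.252, 0.0587 and 0.107).

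**Figure D4:**
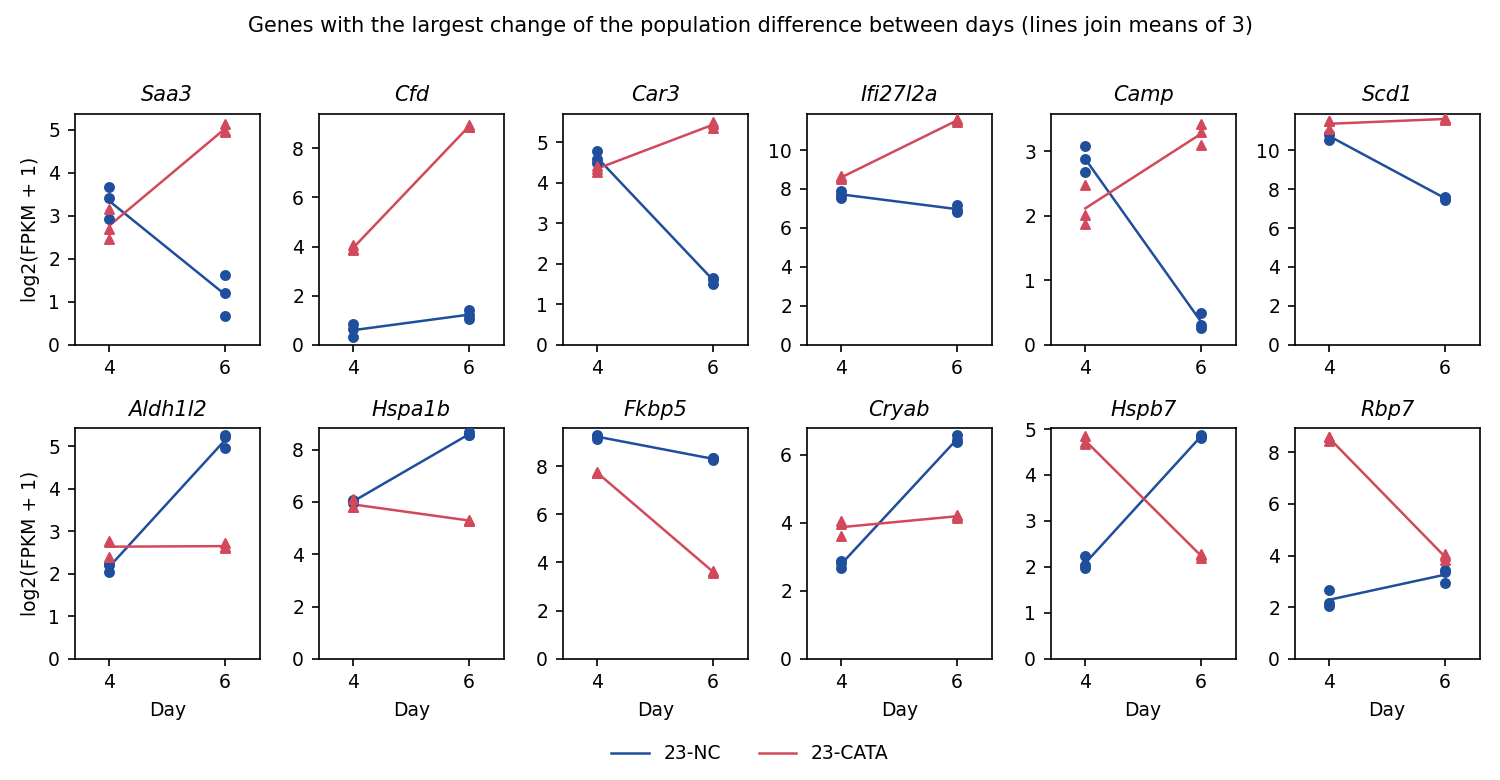
Levels at days 4 and 6 of 23-NC (blue) and 23-CATA (red) for the 12 genes with the largest interaction of population and day, with a point per library and lines joining the means of 3. Cfd, Saa3 and Ifi27l2a part further at day 6, Rbp7 is high in 23-CATA at day 4 alone, Hspb7 is high in 23-CATA at day 4 and in 23-NC at day 6, and Cryab, Hspa1b and Aldh1l2 are highest in 23-NC at day 6.

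In 23-Tet1, the third population of the same table, the genotype tag of each day 6 library differs from its title, and the titles were used. Between it and 23-CATA 8029 genes were called at day 6 (65.7%), 3901 higher in 23-CATA (31.9%) and 4128 lower (33.8%), and 1134 by at least 1 log2 unit (9.27%), 599 higher (4.9%) and 535 lower (4.37%). Tet1 was 0.43 ± 0.11 (SE, adjusted p = 0.0014) higher in 23-CATA. All 32 interferon-stimulated genes tested were higher in 23-CATA than in 23-Tet1 (median 1.80), as were 37 of 38 respiratory chain genes (median 0.56) and 18 of 21 NRF2 genes (median 1.32), against a median of −0.0065 over all genes. Of the respiratory chain genes 24 were higher after quantile normalization (median 0.25), and the median was 0.35 with equal FPKM sums. Glucocorticoid-induced genes were lower in 10 of 16 (median −1.40). The adipocyte markers were less one-sided, with 10 of 15 higher, 2 lower and 3 not called (median 0.67). Cebpa was 152, 148 and 148 FPKM and Adipoq 1318, 1302 and 1456 in 23-Tet1. The higher share of all calls was 48.6% as fitted, 55.7% with median-ratio scaling and 31.6% with equal FPKM sums.

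The largest excesses over 23-Tet1 were Sncg, Slpi, Chchd10, Isg15 and Gstp2, at 4.65 to 6.30. Slpi, a secreted inhibitor of leukocyte proteases, read 166, 184 and 145 FPKM in 23-CATA, 3.49, 2.69 and 3.44 in 23-Tet1 and 37.4, 54.5 and 39.8 in 23-NC, so that 23-NC lay between them. The largest deficits included Fkbp5, Cyp2e1, Tff3 and Agt, at −4.89 to −4.03. Cyp2e1, a cytochrome P450, was 133, 131 and 135 FPKM in 23-Tet1, 5.18, 5.57 and 5.65 in 23-CATA and 3.31, 3.98 and 2.96 in 23-NC. It stood high in 23-Tet1 alone. Fkbp5 in 23-Tet1, at 375, 358 and 351 FPKM, lay between day 6 and day 4 of 23-NC.

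Promoter composition was described for genes moved by at least 1 log2 unit at day 6, in RefSeq windows of 300 bases from 250 before to 50 after the start on GRCm38.p6. Of the 1395 rises 1064 matched, with 1304 promoters, and of the 995 falls 759, with 1008 promoters. The median number of CG dinucleotides, the sites of methylation, was 16 for rises, 21 for falls, 21 for the genes moved by less and 7 for all promoters of the table. Median GC content was 58%, 63%, 61% and 52.7% in that order. The PPAR and RXR element, AGGTCA repeated after any 1 base, was found in none of the promoters of rises or falls, in 0.0507% of those of genes moved by less and in 0.0396% of all. The C/EBP motif TTGCNNCAA was in 1.23% of rises, 1.59% of falls, 1.54% of genes moved by less and 2.08% of all promoters. In the same order the E-box CACGTG was in 10.0%, 10.1%, 9.9% and 7.15%, so that moved genes stood near the tested genes moved by less. The interferon element was in 4.83%, 1.79%, 2.97% and 3.44%, and the glucocorticoid motif in 0.307%, 0.893%, 0.304% and 0.475%. Motifs were searched on both strands.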

How the data were processed

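RNA-seq of 36 libraries was used as a deposited table of FPKM for 24982 genes, given by the authors to 2 decimals. Per the submitters' processing notes, the authors used STAR 2.4.1a, RSEM and mm10. Counting by strand is not given in the sources used here, so overlapping antisense genes cannot be told apart. Removed were 4 rows of repeated symbols, while 26 symbols read as dates and were kept. Groups came from sample titles; for 11 of the 12 23-Tet1 libraries, all 3 of day 6 among them, the genotype tag differs from the title. Values were log2(FPKM + 1), which understates changes of low genes. Genes with at least 1 FPKM in 3 libraries (12229) were fitted with limma 3.58.1 in R 4.3.3 (1 coefficient for each of 12 groups, eBayes with a trend) with calls at a Benjamini-Hochberg adjusted p below 0.05. The read depth is approximate, and no counts were used.

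Members and lists were chosen with earlier results of these data known. Lists (36 pathways and 9 cell types) have no test of their own. Named are 12 fixed genes, the 10 largest rises and falls (called, no overlap, at least 5 FPKM), up to 3 each way per list, 6 each way by interaction and 5 each way against 23-Tet1, passing over predicted models. Some of these genes are not reported here. Folds are ratios of mean FPKM. Coordinates are of GENCODE M21, promoters of RefSeq. Python 3.11.15, pandas 2.3.3 and matplotlib 3.10.9 made tables and figures. Alternatives were another pseudocount, filter, scaling, replicate block, fewer groups, and each library left out.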

Additional observations from a re-analysis of the deposited data

Results flagged for a closer look

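For 12 genes the difference between 23-CATA and 23-NC at day 6 was set apart because it differed from that at day 4 by the interaction test in limma, these being the 6 largest each way. The value given is the day 6 difference minus the day 4 difference on the log2(FPKM + 1) scale. Positive values were 4.42 for Saa3, an acute phase protein, 4.32 for Cfd, 4.11 for Car3, a carbonic anhydrase of fat and muscle, 3.69 for Ifi27l2a, 3.68 for Camp, an antimicrobial peptide, and 3.44 for Scd1. Saa3 was 5.48, 4.49 and 7.88 FPKM in 23-CATA at day 4 and 34.2, 30.4 and 29.9 at day 6, against 9.7, 6.59 and 11.7 in 23-NC at day 4 and 1.31, 2.05 and 0.6 at day 6. Car3 was 20.5, 19.4 and 18.4 FPKM in 23-CATA at day 4 and 39.9, 42.8 and 44.4 at day 6, against 23.1, 21.4 and 26.4 in 23-NC at day 4 and 2.1, 2.14 and 1.85 at day 6. Thus Car3 was above 20 FPKM in each 23-NC library at day 4 and under 3 at day 6. Camp was 3.03, 2.65 and 4.55 FPKM in 23-CATA at day 4 and 7.56, 8.86 and 9.74 at day 6, against 5.41, 6.39 and 7.45 in 23-NC at day 4 and 0.41, 0.2 and 0.24 at day 6.

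Negative values were −5.57 for Rbp7, −5.26 for Hspb7, −3.35 for Cryab, a small heat shock protein, −3.19 for Fkbp5, −3.18 for Hspa1b, an inducible HSP70 with a near-identical copy, and −2.97 for Aldh1l2, a mitochondrial folate enzyme. Cryab was 11.2, 14.6 and 15.6 FPKM in 23-CATA at day 4 and 16.6, 17.9 and 17.4 at day 6, against 6.41, 6.03 and 5.35 in 23-NC at day 4 and 81.5, 95.5 and 85.2 at day 6. Hspa1b was 54.3, 55.6 and 67.3 FPKM in 23-CATA at day 4 and 37.9, 37.95 and 38.3 at day 6, against 65.1, 66.5 and 60.8 in 23-NC at day 4 and 372, 402 and 379 at day 6. Aldh1l2 was 5.71, 5.82 and 4.25 FPKM in 23-CATA at day 4 and 5.2, 5.05 and 5.58 at day 6, against 3.69, 3.65 and 3.14 in 23-NC at day 4 and 36.1, 29.97 and 37.4 at day 6. In these 3 genes 23-NC at day 6 stood highest of the 4 groups. Fkbp5 was 211, 206 and 213 FPKM in 23-CATA at day 4 and 10.9, 11.3 and 11.6 at day 6, against 628, 609 and 556 in 23-NC at day 4 and 304, 318 and 323 at day 6, and so was lower in 23-CATA on both days. The adjusted p of these 12 interactions ran from 1.6e-21 to 1.7e-10. No cause was tested.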

How the results depend on the processing

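Counts of calls, with and without the 1 log2 rule, were taken in the 5 comparisons under each change of setting. Of these counts 149 stayed within 1.5 times and 3 did not. All 3 came with a pseudocount of 0.1 FPKM. There, calls by at least 1 log2 unit became 1550 within 23-NC (905 as fitted), 1394 for the interaction (863) and 1860 against 23-Tet1 (1134). Leaving out each library gave 8656 to 8913 calls at day 6 and 2347 to 2538 by at least 1 log2 unit. The same ranges were 6875 to 6993 and 883 to 925 within 23-NC, 7608 to 8244 and 1561 to 1805 against 23-NC day 4, 5241 to 5530 and 822 to 905 for the interaction, and 7341 to 7639 and 1092 to 1184 against 23-Tet1. Libraries of 23-CATA and 23-NC at day 6 with the same replicate number had residual correlations of 0.089, 0.333 and 0.162. Those with different numbers had −0.226 to 0.125. These values do not settle whether replicate numbers pair the libraries. With a replicate block 9049 genes were called, and 7375, 8206, 5614 and 7994 in the other comparisons. Among values of single genes, 3278 kept direction and call, 14 lost the call, 3 gained it and 1 reversed. Phlda3 reversed under quantile normalization to −0.20 (adjusted p = 0.0158) and was not called with equal FPKM sums (0.721) or without 23-NC replicate 1 or 3 (0.0546 and 0.0755). Cebpb became called under quantile normalization (−1.12, adjusted p = 0.0189) and equal FPKM sums (−1.13, 0.0165). Des was not called with a pseudocount of 0.1 (0.0754) or equal sums (0.241), nor Stard4 without 23-NC replicate 3 (0.0501). For list members, 5195 counts stayed within 1.5 times and 277 did not. List medians moved by over 1.5 times under quantile normalization or equal sums in 17 of 36 lists at day 6, 10 within 23-NC, 24 against 23-NC day 4, 16 for the interaction and 28 against 23-Tet1. At day 6 the sign turned in DNA replication (−0.084 with equal sums) and progenitor genes (−0.071 and −0.065). Under equal sums the other medians not given above were −0.54 for BMP and TGF-β, −0.61 for CCN and YAP, −0.35 for contractile, −0.47 for imprinted, −0.49 for ribosomal, −0.32 for unfolded protein, −0.27 for WNT and 0.22 for cartilage genes. Ribosomal protein genes that fell numbered 9 as fitted, 26 after quantile normalization and 27 with equal sums. The causes were not tested. No counts were used, so low genes carry unknown counting error.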

Other observations

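Cholesterol synthesis genes rose in 17 of 23 cases, with 3 falls and 3 not called (median 0.72), led by Hmgcs1, the synthase that precedes the mevalonate step (135 against 33.7 FPKM), and Fdps (74 against 20.8). Srebf2, the factor that controls this pathway, fell from 65.4 to 26. Of 35 genes of DNA replication and mitosis 14 rose, 7 fell and 14 were not called (median 0.13), and with equal FPKM sums 8 rose and 11 fell. Ccne2, a cyclin of the entry into replication, fell from 7.87 to 3.31 FPKM. Unfolded protein and amino acid stress genes were divided, with 8 of 25 higher and 11 lower (median −0.067). Psat1 and Phgdh, of serine synthesis, rose from 26.7 to 137 and from 30.9 to 118 FPKM, while Ddit4 fell from 141 to 33 and the endoplasmic reticulum chaperone Hsp90b1 from 476 to 216.

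Among lineage and signalling lists, BMP and TGF-β genes fell in 15 of 24 cases and rose in 6 (median −0.28). Fst, follistatin, fell from 6.49 to 1.55 FPKM, and Chrdl1, a BMP antagonist, rose from 1.81 to 13.5. WNT pathway genes gave 3 rises and 7 falls of 16 (median −0.079), with Rspo2 up from 6.35 to 28.7 and Lef1 down from 2.99 to 0.67. CCN family and YAP targets fell in 9 of 14 and rose in 2 (median −0.35), contractile genes fell in 8 of 18 and rose in 4 (median −0.12), and skeletal muscle genes fell in 4 of 7 tested and rose in 1. Cartilage, bone and tendon genes rose in 7 of 15 and fell in 4 (median 0.41), and progenitor and fibroblast genes rose in 6 and fell in 6 of 15 (median 0.033). Ly6a, the surface protein SCA-1, rose from 244 ± 36.9 FPKM (SD, n = 3) to 745 ± 95.6, while Vim fell from 2453 ± 90.1 to 1042 ± 38.4.

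Of gene classes whose promoters are known to be under DNA methylation or Polycomb control, all 9 HOX genes that passed the filter of 36 listed rose (median 0.61), and 6 did with equal FPKM sums. A low gene can pass the filter through the group where it is high, so this count may in part be set by the filter. Against 23-Tet1 at day 6, 3 of the 9 were higher in 23-CATA, 1 lower and 5 not called. The largest rise was in Hoxa10, at 5.12 ± 0.713 FPKM (SD, n = 3) against 1.85 ± 0.141, and Hoxc9 read 0.53, 0.89 and 0.53 against 0 in all 23-NC day 6 libraries. Of 28 germline genes 3 passed the filter, with the same limit. Sycp3 (5.73 against 0.61 FPKM) and Taf9b (4.04 against 0.853) rose, and Sycp1 fell (0.68 against 1.79). Of 11 imprinted genes tested 3 rose and 5 fell (median −0.21), with Peg10 up from 1.07 to 6.61 FPKM and Igf2r down from 83.1 to 32.5. Under quantile normalization 8 imprinted genes fell. Ribosomal protein genes gave 1 rise, 9 falls and 24 not called of 34 (median −0.22).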
